A study of Mus musculus with 24 samples.

Results

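The genes of the Eph, ephrin, semaphorin, plexin, neuropilin, Slit and Robo families were followed in the urogenital sinus (UGS) of C57/Bl6J mouse embryos. The UGS is an epithelial tube with surrounding mesenchyme, from which the prostate buds in males. Members were chosen by gene name on the array: names that start with Epha, Ephb, Efna, Efnb, Sema or Plxn and go on with a letter or digit, together with Nrp1, Nrp2, Slit1, Slit2, Slit3, Robo1, Robo2 and Robo4. Epha3 was left out. This gave 55 of 28650 genes on the array: 12 Eph receptors, 8 ephrins, 19 semaphorins, 8 plexins, 2 neuropilins, 3 Slits and 3 Robos.

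RNA from pooled embryos was compared on 24 Agilent 2-colour whole mouse genome arrays, in 12 pairs of pools, each pair hybridised once in each dye orientation. In the first 2 sets, paired pregnancies were given vehicle or dihydrotestosterone (DHT), the potent androgen made from testosterone by 5-alpha-reductase, as a pulse of 50 mg/kg at 16 days post conception (dpc). Female embryos were collected for UGS tissue after 6 h (4 pairs of pools, 8 arrays) or after 12 h (3 pairs, 6 arrays). In the third set, the UGS of unmanipulated males was compared with that of female littermates at 17.5 dpc (5 pairs, 10 arrays), a point the labels count as 48 h. The labels give no genotype beyond this strain. Sex was read from the gonads, and the accessory ducts had been dissected away in all sets. The question was which genes respond to androgen in the female UGS and which differ between the sexes as the prostate begins to form. Each comparison was hybridised on a date of its own, so comparison and hybridisation date cannot be told apart. The pools were labelled as biological replicates, but the number of embryos per pool is not given.

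These families carry signals of contact and position between cells. Ephrins are membrane-bound ligands, held by a lipid anchor in class A and by a transmembrane segment in class B, and Eph receptors are the tyrosine kinases that bind them. Semaphorins signal through plexins, and most secreted class 3 semaphorins need a neuropilin as co-receptor. Slits are secreted proteins that bind Robo receptors. These families are known as guides of growing axons, and they also act in the branching of epithelia, the growth of vessels and the sorting of cells at tissue borders.

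Values are log2 ratios, DHT over vehicle pool or male over female pool, after the 2 dye orientations of a pair were averaged. A gene is said to rise or fall where its p-value from limma, adjusted by Benjamini-Hochberg over all 24715 genes tested, was under 0.05. Each gene was read from its brightest probe. Of the 55 genes, 54 passed the filter on dim probes (a channel well above background on at least 6 of 24 arrays), and 52 of these were well above background on all 24 arrays. Plxna4, a class A plexin, was well above background on 4 arrays and was not tested. A probe that the array names 9330117B14, and that maps to Plxna4 by synonym, was well above background on 24 arrays, with mean log2 ratios of 0.04 at 6 h, −0.12 at 12 h and −0.17 between the sexes. It was not counted as a member. With their signs turned to the same direction, the 2 arrays of a pair were correlated across the brightest probes of all genes past the filter. Between the sexes r was 0.39 to 0.763, at 12 h −0.197 to 0.163 and at 6 h −0.501 to −0.05. A dye effect cancels in the mean of the 2 orientations, which is the value given for each pair. The tissue is a mixture of cells, so fewer cells of a type and less RNA per cell cannot be told apart in any value below.

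Between the sexes, 14 of the 54 guidance genes (25.9%) passed the threshold, 5 higher and 9 lower in males. Over all genes tested, 7.58% passed, 3.72% higher and 3.86% lower in males. With the filter raised to 18 of 24 arrays, which leaves better measured genes, 8.86% of all genes passed. The genes lower in males were 5 Eph receptors (Epha5, Epha7, Ephb1, Ephb2 and Ephb3), the neuropilin Nrp2, the ligand Slit2, the receptor Robo2 and the transmembrane semaphorin Sema6d. The genes higher in males were Sema3b, Sema4a, Plxna2, Plxnb1 and Slit3. After DHT, Robo1 and Efna2 fell at 6 h and no guidance gene passed at 12 h. The median over the 54 genes was −0.03 at 6 h, 0.00 at 12 h and −0.01 between the sexes, against 0.01, 0.00 and 0.00 over all genes, and the median absolute log2 ratio was 0.06, 0.04 and 0.11, against 0.04, 0.05 and 0.04.

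**Figure D1:**
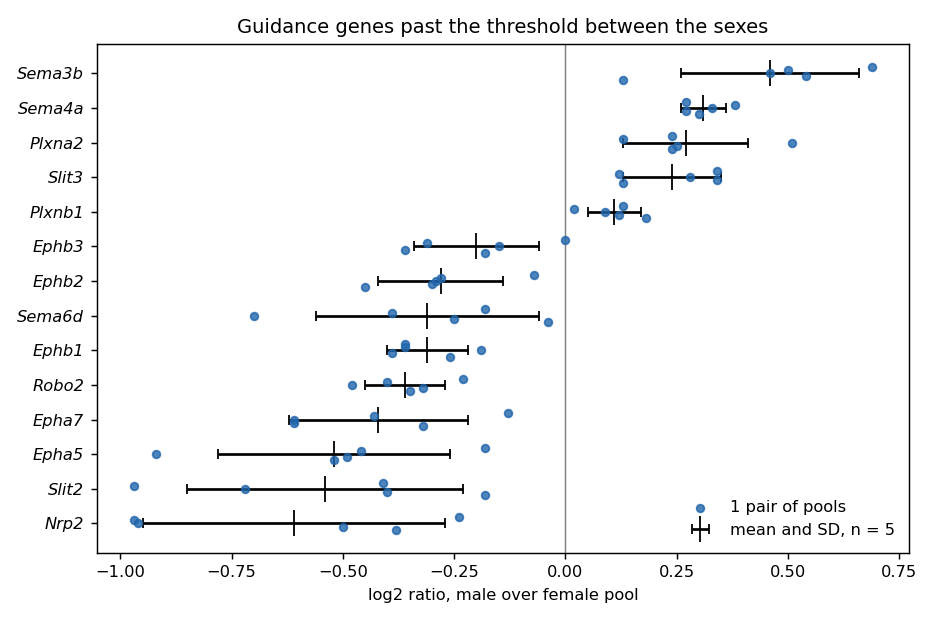
Log2 ratio of male over female pools (horizontal axis) for the 14 guidance genes past the threshold. Points are the 5 pairs of pools, and bars give the mean and SD. The lowest means were those of Nrp2 (−0.61) and Slit2 (−0.54), the highest that of Sema3b (0.46), and Sema4a had the narrowest spread (SD 0.05).

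Promoter windows from RefSeq (GRCm38.p6), 250 bases before a transcript start, were matched by symbol for 48 of the 55 genes. Efnb3, Plxna1, Plxna4, Sema3b, Sema3f, Sema6a and Slit1 were not matched. Those of 4 genes are shown because they carry the opposite pair of ligands (Slit2, lower, and Slit3, higher in males), the gene with the largest fall (Nrp2) and the gene with the smallest adjusted p (Ephb1). They are written 5′ to 3′ on the strand of the gene, and capitals mark the GC box, GGGCGG or its complement CCGCCC, the element bound by Sp1-type factors. The windows lie at chr5:47982905-47983154, plus strand (Slit2); chr11:35121206-35121455, plus strand (Slit3); chr1:62703067-62703316, plus strand (Nrp2); and chr9:102354694-102354943, minus strand (Ephb1).
Slit2: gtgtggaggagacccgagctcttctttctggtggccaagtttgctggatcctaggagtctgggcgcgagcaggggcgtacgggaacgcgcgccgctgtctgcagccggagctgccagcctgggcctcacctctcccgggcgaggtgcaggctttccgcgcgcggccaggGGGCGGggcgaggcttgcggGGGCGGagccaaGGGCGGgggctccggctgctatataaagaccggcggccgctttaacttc
Slit3: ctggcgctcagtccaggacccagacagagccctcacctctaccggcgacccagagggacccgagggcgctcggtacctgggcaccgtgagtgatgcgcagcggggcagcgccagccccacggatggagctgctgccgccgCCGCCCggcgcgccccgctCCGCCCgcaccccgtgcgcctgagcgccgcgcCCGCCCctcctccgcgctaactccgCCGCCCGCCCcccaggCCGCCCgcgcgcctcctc
Nrp2: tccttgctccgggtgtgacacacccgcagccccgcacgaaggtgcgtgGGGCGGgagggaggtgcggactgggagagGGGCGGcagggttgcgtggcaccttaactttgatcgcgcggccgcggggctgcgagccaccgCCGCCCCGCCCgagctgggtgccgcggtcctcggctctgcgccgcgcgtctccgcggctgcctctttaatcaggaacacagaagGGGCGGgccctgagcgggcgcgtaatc
Ephb1: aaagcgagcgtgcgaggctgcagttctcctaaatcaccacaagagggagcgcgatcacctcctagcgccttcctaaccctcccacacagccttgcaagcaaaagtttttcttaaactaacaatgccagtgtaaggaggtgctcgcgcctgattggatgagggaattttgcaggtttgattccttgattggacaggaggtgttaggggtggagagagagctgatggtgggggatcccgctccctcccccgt
The Slit2 window held 3 GC boxes, the Slit3 window 6 and the Nrp2 window 5, some of them overlapping, and the Ephb1 window held none. A GC box was present in 45 of 64 windows of the guidance genes (70.3%) and in 10756 of 32851 windows of all genes (32.7%). Among windows of the guidance genes past the threshold between the sexes, 13 of 20 held it (65%), no larger a share than in the guidance genes as a whole. The windows of Slit2 and of Slit3, whose ratios went opposite ways, both held it. The androgen receptor hexamer, AGAACA or its complement TGTTCT, was present in 16.1% of all windows and in 6 of the 64 guidance windows (9.38%). Of the 20 windows of genes past the threshold between the sexes, 1 held a hexamer, at a second start of Sema6d. The full site, AGAACA followed by any 3 bases and TGTTCT, contains the hexamer on both strands and was in 3 windows of all genes and in none of the 64. These counts describe letters within 250 bases only.

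Among the Eph receptors, 5 of 12 fell between the sexes, where 3.86% of all genes did, and none rose. They were 2 of the 7 class A receptors and 3 of the 5 class B receptors. Epha5, a receptor for ephrin-A ligands, gave −0.52, −0.49, −0.92, −0.46 and −0.18 in pairs 1 to 5 (mean −0.52 ± 0.26 SD, n = 5, 0.699-fold, adjusted p = 0.000957). It was lower in males on 10 of 10 arrays, and the probe signals of male pools (6.82 to 7.32 on the log2 scale) and female pools (7.36 to 7.84) did not overlap. Epha7, also a class A receptor, gave −0.32, −0.61, −0.61, −0.43 and −0.13 (mean −0.42 ± 0.20 SD, n = 5, adjusted p = 0.00304). Every pair was below 0, while the signals of male pools (8.32 to 9.05) and female pools (8.90 to 9.18) overlapped, since pools also differed from pair to pair. A second Epha7 probe read −0.22, −0.35, −0.26, −0.20 and −0.15 (mean −0.23 ± 0.07 SD). The second probe of Epha5, well above background on 13 of 24 arrays, stayed within −0.08 and −0.01 in the 5 pairs.

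The class B receptors that fell were close in size. Ephb1 gave −0.26, −0.39, −0.19, −0.36 and −0.36 (mean −0.31 ± 0.09 SD, n = 5, adjusted p = 0.000137). The signals of male pools (6.44 to 6.54) all lay below those of female pools (6.63 to 6.93). Ephb2, which with Ephb3 is known for setting cell position along the intestinal crypt, gave −0.45, −0.30, −0.29, −0.28 and −0.07 (mean −0.28 ± 0.14 SD, n = 5, adjusted p = 0.00122). Ephb3 gave −0.18, −0.36, −0.15, −0.31 and 0.00 (mean −0.20 ± 0.14 SD, n = 5, adjusted p = 0.0268), so that pair 5 showed no difference. Ephb3 missed the threshold when pair 1, 2 or 4 was left out (−0.21, −0.16 and −0.17, adjusted p = 0.0578, 0.109 and 0.129). The dim second probe of Ephb2, well above background on 11 arrays, read 0.01 ± 0.09 SD and so did not share the sign. Ephb1 and Ephb3 each had 1 probe.

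The other Eph receptors did not pass. Epha4, which binds ligands of both classes, had the lowest of their means between the sexes (−0.32 ± 0.36 SD, n = 5, adjusted p = 0.0796), with −0.18, −0.49, −0.85, −0.14 and 0.07 in pairs 1 to 5. Epha1, a receptor found in epithelia, had the highest (0.35 ± 0.41 SD, n = 5, adjusted p = 0.0847). Its mean rested on pair 4, at 1.07, while the other pairs lay between 0.12 and 0.32. Epha2, Epha6, Epha8, Ephb4 and Ephb6 lay between −0.07 and 0.12. The 8 ephrins gave no call between the sexes. Their means ran from −0.16 (Efnb2) to 0.11 (Efna1), and 4 were above and 4 below 0 (1 at an unadjusted p under 0.05).

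Among the 19 semaphorins, 2 rose and 1 fell between the sexes. Sema3b, a secreted class 3 semaphorin, gave 0.13, 0.54, 0.46, 0.50 and 0.69 (mean 0.46 ± 0.20 SD, n = 5, 1.38-fold, adjusted p = 0.000436). It was higher in males on 10 of 10 arrays, and male pools (8.41 to 8.80) lay above female pools (8.03 to 8.27). Sema4a, a membrane-bound class 4 semaphorin, gave 0.30, 0.27, 0.33, 0.38 and 0.27 (mean 0.31 ± 0.05 SD, n = 5, adjusted p = 0.00429), and its male pools (8.21 to 8.56) also lay above its female pools (7.94 to 8.17). Sema6d, a transmembrane semaphorin whose receptor is Plxna1, gave −0.04, −0.25, −0.70, −0.39 and −0.18 (mean −0.31 ± 0.25 SD, n = 5, adjusted p = 0.0219). Its fall was not even over the pairs, and it missed the threshold without pair 3 (−0.21, adjusted p = 0.0531) or pair 4 (−0.29, adjusted p = 0.0923). A second Sema6d probe had the same mean, −0.32, with a wider spread (SD 0.52): it read 0.30, −0.28, −1.0, −0.64 and 0.03, above 0 in pairs 1 and 5.

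The remaining 16 semaphorins lay between −0.14 (Sema3a, the secreted ligand of Nrp1) and 0.12 (Sema5a) between the sexes. Sema5b was read from its brightest probe at 0.03 ± 0.21 SD. Its 2 dimmer probes, both well above background on 24 arrays, read −0.35 ± 0.17 SD and −0.25 ± 0.11 SD, below 0 in all 5 pairs. Sema5b was singled out after its values were seen: the mean over a gene's probes brought it past the threshold, and the brightest probe did not. The class 3 semaphorins among the members other than Sema3b, namely Sema3a, Sema3c, Sema3d, Sema3e and Sema3f, did not pass in any comparison. Probes that the array names AK129018 and 6430702L12 map to Sema3g and Sema3e and were not counted as members. The Sema3g probe, well above background on 24 arrays, read 0.30 ± 0.17 SD at 6 h, −0.02 at 12 h and −0.16 between the sexes. The Sema3e probe, brighter than the one used, read 0.05, −0.06 and −0.01.

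The receptors of semaphorins split. Nrp2, the neuropilin that binds Sema3b and Sema3f and that is also a co-receptor for VEGF-C, had the largest fall of the 54 genes between the sexes: −0.38, −0.50, −0.96, −0.97 and −0.24 (mean −0.61 ± 0.34 SD, n = 5, 0.655-fold, adjusted p = 0.00246). The signals of male pools (10.53 to 11.35) and female pools (11.50 to 11.70) did not overlap, and the spread was wider among males. A dim second probe, above background on 12 arrays, read −0.01 ± 0.03 SD. Another dim probe, which the array names Npn2 and which maps to Nrp2, was above background on 8 arrays. It read 0.01 ± 0.03 SD and was not counted as a member. Nrp1, the other neuropilin, read −0.13 ± 0.29 SD and did not pass. Of the 7 plexins tested, Plxna2 and Plxnb1 rose. Plxna2, a signalling partner of neuropilins, gave 0.24, 0.25, 0.51, 0.13 and 0.24 (mean 0.27 ± 0.14 SD, n = 5, adjusted p = 0.0379). A dimmer Plxna2 probe read 0.19 ± 0.16 SD. Plxnb1, the receptor of Sema4d, gave 0.18, 0.12, 0.09, 0.02 and 0.13 (mean 0.11 ± 0.06 SD, n = 5, adjusted p = 0.0467). A dimmer Plxnb1 probe read −0.01, 0.07, −0.17, 0.04 and 0.40 (mean 0.07 ± 0.21 SD). The calls of Plxna2 and Plxnb1 were both close to the threshold. Plxna2 lost its call without any 1 of the 5 pairs (0.22 to 0.31, adjusted p from 0.0554 to 0.126), and Plxnb1 lost it without pair 1, 2, 3 or 5 (0.09 to 0.11, adjusted p from 0.0829 to 0.143). With median centring in place of loess, Plxnb1 read 0.04. The other 5 plexins lay between −0.13 (Plxnc1) and 0.00 (Plxna1).

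Slit2 and Slit3, which encode ligands of the same Robo receptors, went opposite ways between the sexes. Slit2 gave −0.18, −0.40, −0.72, −0.97 and −0.41 (mean −0.54 ± 0.31 SD, n = 5, 0.69-fold, adjusted p = 0.0064). Male pools (8.73 to 9.42) lay below female pools (9.55 to 9.81). Its second brightest probe followed it pair by pair, with −0.13, −0.39, −0.53, −0.73 and −0.30. Dimmer Slit2 probes past the filter read 0.05 ± 0.11 SD and −0.03 ± 0.09 SD. Slit3 gave 0.13, 0.34, 0.28, 0.12 and 0.34 (mean 0.24 ± 0.11 SD, n = 5, 1.18-fold, adjusted p = 0.00173). It was higher in males on 9 of 10 arrays, and the signals of male and female pools overlapped. Slit1 read 0.13 ± 0.11 SD and did not pass (adjusted p = 0.0941), with all 5 pairs above 0.

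Robo2, a Slit receptor with a known role in the outgrowth of the ureteric bud, gave −0.35, −0.32, −0.48, −0.40 and −0.23 (mean −0.36 ± 0.09 SD, n = 5, 0.782-fold, adjusted p = 0.000353). It was lower in males on 10 of 10 arrays, and male pools (7.06 to 7.41) lay below female pools (7.54 to 7.72). Of 4 further Robo2 probes past the filter, 2 were also below 0 in all 5 pairs (means −0.24 and −0.17), and the 2 dimmest read 0.01 and −0.01. Robo1, the closest relative of Robo2, read −0.15 ± 0.11 SD between the sexes and did not pass (adjusted p = 0.191), although all 5 pairs were below 0. Robo4, the endothelial Robo, read −0.01 ± 0.14 SD.

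Of the 14 genes past the threshold between the sexes, 7 had male and female pool signals that did not overlap: Nrp2, Slit2, Epha5, Robo2, Ephb1, Sema3b and Sema4a. No other guidance gene was without overlap, so these were 7 of 54 members, against 3.12% of all genes without overlap and 7.58% of all genes past the threshold in this comparison. The other 7 differed within the pairs but not beyond the range over pools.

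**Figure D2:**
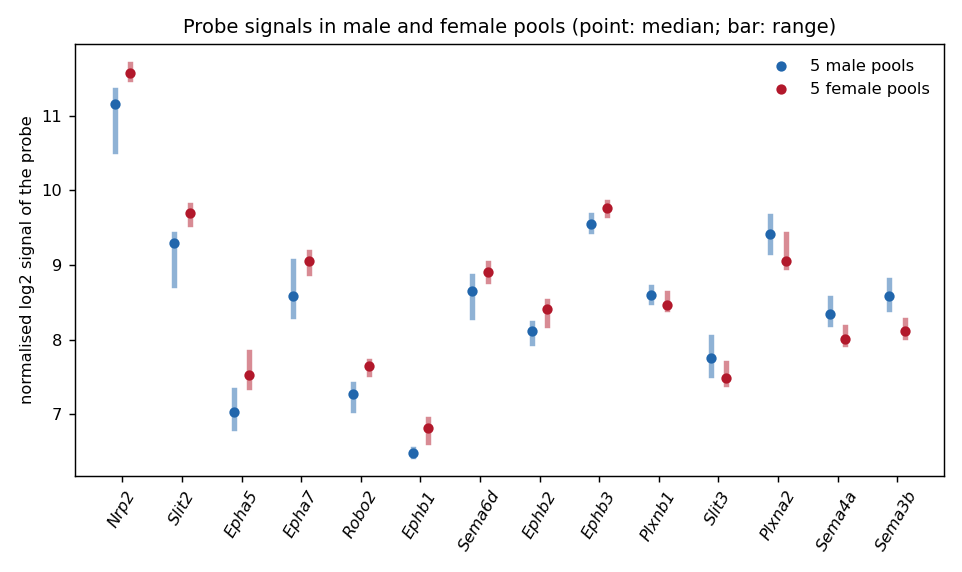
Normalised log2 probe signal (vertical axis) in the 5 male and 5 female pools for the 14 guidance genes past the threshold between the sexes. Points are medians and bars ranges, and levels of different genes cannot be compared because their probes differ. For 7 genes, among them Nrp2 and Robo2, the bars of the sexes did not overlap.

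**Figure D3:**
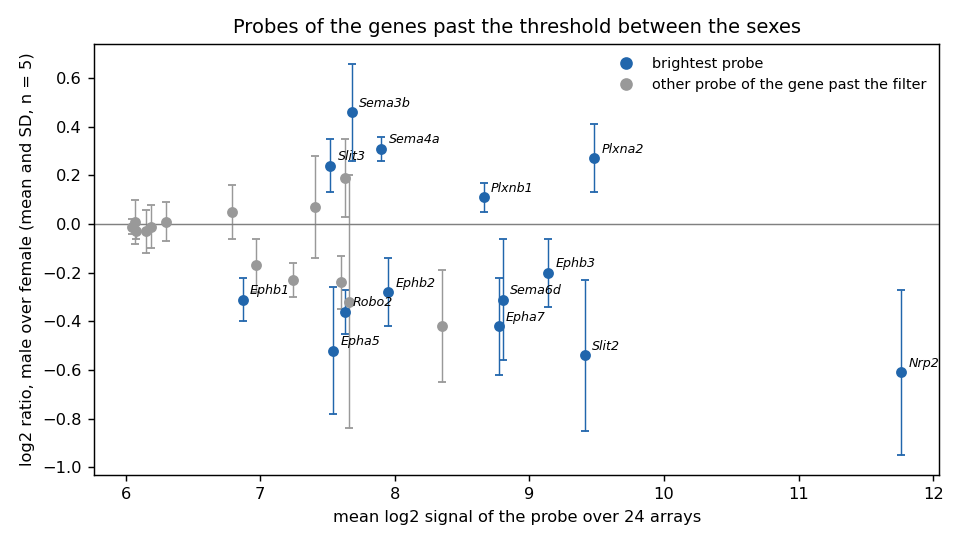
Mean log2 ratio of male over female pools with SD over 5 pairs (vertical axis) against the mean log2 signal of the probe (horizontal axis), for the brightest probe and for other probes past the filter of the same 14 genes. Only probes that carry the gene's name on the array are drawn, so the Npn2 probe is not. The dimmest of the other probes lay near 0, while the brighter second probes of Slit2 (−0.42) and Sema6d (−0.32) lay near their partners.

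Markers of other cell types moved with the sex comparison. Of 15 epithelial markers, 8 were higher in males and none lower, and their mean log2 ratio was 0.09, 0.40, 0.53, 0.43 and 0.26 in pairs 1 to 5. Of 11 fibroblast and mesenchyme markers, 4 were lower and 1 (Tcf21) higher, with means of −0.07, −0.01, −0.48, −0.54 and −0.08. Pairs 3 and 4, the lowest for the mesenchymal markers, were also the lowest for Nrp2, Slit2 and Sema6d, whereas Ephb1 was at −0.19 and −0.36 and Slit3 at 0.28 and 0.12 in them. The endothelial means (−0.22 and −0.24) and the neuron and Schwann cell means (−0.45 and −0.15) were also lowest in these pairs. The skeletal muscle mean was highest in pair 3 (1.45), and the smooth muscle mean was lowest in pair 4 (−0.57). Of 9 smooth muscle markers, 3 were lower. Of 7 markers of the Wolffian and Mullerian ducts, Amhr2 (−1.08), Wnt7a (−0.77) and Wt1 (−0.34) were lower in males, and the list mean was −0.47, −0.29, −0.31, −0.16 and −0.37. Of 15 endothelial markers, Sox17 (−0.98) and Sox18 (−0.12) were lower. None of 14 neuron and Schwann cell markers passed by limma (1 at an unadjusted p under 0.05).

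With the epithelial mean as a covariate, 4 guidance genes passed between the sexes: Ephb1, Ephb2, Robo2 and Sema3b. With the mesenchymal mean, chosen after the data were seen, the same 4 and Slit3 passed. In these fits Nrp2 read −0.30 and −0.29, Slit2 −0.26 in both, and Epha5 −0.37 and −0.38, none of them past the threshold (adjusted p from 0.0864 to 0.372). With the duct mean, also chosen after the data were seen, none passed by limma (9 at an unadjusted p under 0.05). In all 5 male-female pairs the duct and mesenchymal means were below 0 and the epithelial mean above 0, so each of these covariates moved with sex. In it Slit2 read −0.88, Nrp2 −0.81, Sema3b 0.65 and Robo2 −0.46, with adjusted p from 0.121 to 0.352. Which cells carried these differences was not tested.

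At 6 h after DHT, 2 of the 54 guidance genes (3.7%) passed, both lower, where 1.63% of all genes passed, 1.15% lower and 0.486% higher. Robo1 gave −0.70, −0.37, −0.28 and −0.30 in pairs 1 to 4 (mean −0.41 ± 0.20 SD, n = 4, 0.751-fold, adjusted p = 0.012). It was lower with DHT on 8 of 8 arrays, and DHT pools (8.98 to 9.14) lay below vehicle pools (9.34 to 9.68). Its single probe read −0.34 with the DHT pool in Cy5 and −0.49 with it in Cy3. Efna2, a lipid-anchored ligand of EphA receptors, gave −0.33, −0.40, −0.02 and −0.24 (mean −0.25 ± 0.17 SD, n = 4, 0.843-fold, adjusted p = 0.0322). Its DHT pools (7.17 to 7.35) lay below its vehicle pools (7.37 to 7.57) by a narrow gap. The DHT and vehicle pools of 8 guidance genes that did not pass were also without overlap (Epha7, Ephb2, Ephb3, Plxnb2, Robo2, Robo4, Sema6d and Sema7a), 10 of 54 in all, against 8.02% of all genes. Without pair 1, Robo1 read −0.32 (adjusted p = 0.088), and without pair 2 it read −0.43 (adjusted p = 0.0697). Efna2 lost its call without pair 1, 2 or 4 (−0.22, −0.19 and −0.25, adjusted p = 0.23, 0.195 and 0.0818).

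Several relatives lay below 0 at 6 h without passing. All 8 ephrins had means at or below 0, from −0.34 for Efnb2 to 0.00 for Efna5. Efnb2, the transmembrane ligand known from arterial endothelium, gave −0.70, −0.42, −0.25 and 0.01 (adjusted p = 0.123). Epha7 gave −0.44, −0.30, −0.37 and −0.18 (mean −0.32, adjusted p = 0.074), and Ephb3 gave −0.30, −0.20, −0.33 and −0.06 (mean −0.22, adjusted p = 0.0705). Robo2 gave −0.38, −0.24, −0.14 and −0.08 (mean −0.21, adjusted p = 0.0665), and Ephb2 gave −0.21, −0.14, −0.20 and −0.13 (mean −0.17, adjusted p = 0.0965). On their brightest probes, Epha7, Ephb2, Ephb3 and Robo2, all lower in males at 17.5 dpc, were thus below 0 in every pair and on 8 of 8 arrays at 6 h, but none passed. The second Epha7 probe read 0.02, 0.06, 0.07 and −0.07 at 6 h, and the second brightest Robo2 probe −0.26, −0.02, −0.07 and 0.04. Ephb1, also lower in males, lay the other way, at 0.07, 0.25, 0.12 and 0.13 (mean 0.14, adjusted p = 0.108). Slit2, Epha5 and Nrp2, lower in males as well, had means of −0.03, 0.06 and 0.10 at 6 h. Sema6d had the highest mean of the tested members at 6 h (0.20, adjusted p = 0.285). It read 0.43 with DHT in Cy5 and −0.02 with DHT in Cy3.

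The remaining groups were closer to 0 at 6 h. Semaphorins other than Sema6d ran from −0.10 (Sema3f) to 0.12 (Sema7a), plexins from −0.11 (Plxnb2) to 0.11 (Plxnc1), neuropilins read 0.08 and 0.10, and Slits ran from −0.03 to 0.03. Epha4 read −0.17 and Robo4 0.11, and Epha1, Epha2, Epha5, Epha6, Epha8, Ephb4 and Ephb6 lay between −0.09 and 0.06.

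Other RNAs moved with the 6 h comparison. The mean of 15 epithelial markers was −0.56, −0.44, −0.11 and −0.02 in pairs 1 to 4, none of them past the threshold by limma (9 at an unadjusted p under 0.05). Robo1, Efnb2 and Robo2 were lowest in pair 1 as well. Of 7 immune markers, Adgre1 (0.36, adjusted p = 0.0379) and Ptprc (0.19, adjusted p = 0.0266) were higher, and the list mean was 0.38, 0.28, 0.14 and 0.14. Of 9 smooth muscle markers, Myocd was lower (−0.45, adjusted p = 0.0257). Y-linked genes, which should read near 0 between female pools, had means of −0.14, −1.27, −0.68 and −0.74, and all 4 of them were below 0 in every pair. The vehicle pools thus gave more Y-linked signal than their DHT partners, although all are labelled female. Whether a difference between the sexes entered the 6 h ratios of the guidance genes was not tested. In pair 1, Ddx3y read −0.07, Eif2s3y −0.04, Kdm5d −0.26 and Uty −0.20. A ratio does not give the amount of such RNA in either pool. Pair 1, whose Y-linked mean was nearest to 0, had the lowest Robo1 ratio, −0.70, and Efna2 at −0.33. From that pair alone, with the spread taken from the other comparisons, neither passed (adjusted p = 0.14 and 0.185). With the epithelial mean as a covariate Robo1 read −0.37 (adjusted p = 0.179) and Efna2 −0.17 (adjusted p = 0.311), and with the Y-linked mean they read −0.63 (adjusted p = 0.256) and −0.19 (adjusted p = 0.701).

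**Figure D4:**
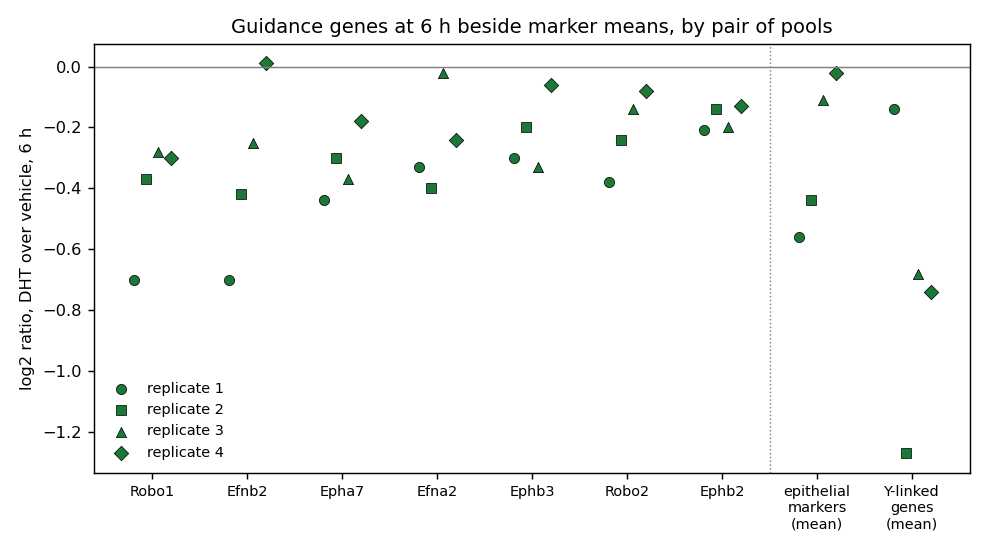
Log2 ratio of DHT over vehicle pools at 6 h (vertical axis) in each of the 4 pairs for Robo1 and Efna2, which passed the threshold, and for Efnb2, Epha7, Ephb3, Robo2 and Ephb2, which did not, beside the mean of 15 epithelial markers and of 4 Y-linked genes. Pair 1 was lowest for Robo1 (−0.70), for Efnb2 (−0.70) and for the epithelial mean (−0.56), and highest for the Y-linked mean (−0.14). Efna2 was lowest in pair 2 (−0.40) and Ephb3 in pair 3 (−0.33).

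At 12 h after DHT no guidance gene passed by limma, where 0.287% of all genes passed (0.113% higher and 0.174% lower), and 5 had an unadjusted p under 0.05. The lowest mean was that of Nrp2, with −0.02, −0.25 and −0.59 in pairs 1 to 3 (mean −0.29 ± 0.29 SD, n = 3, adjusted p = 0.365). Plxna3, a plexin encoded on the X chromosome, followed with −0.23, −0.05 and −0.31 (mean −0.20, adjusted p = 0.124), and Ephb2 read −0.14 (adjusted p = 0.293). The highest means were 0.17 for Epha1 and 0.17 for Robo1. Robo1, which fell at 6 h, gave 0.33, 0.10 and 0.07 at 12 h (adjusted p = 0.363). Slit2 spread widely, with 0.22, 0.05 and −0.52. Slit3 gave −0.17, −0.09 and −0.10 (mean −0.12, adjusted p = 0.309). The epithelial mean ran from 0.01 to 0.56 over these 3 pairs, and the mean of the skeletal muscle markers from 0.01 to 0.78. Pair 3 had the highest epithelial mean, the highest skeletal muscle mean and the lowest Nrp2, Slit2 and Epha7 ratios.

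The other groups at 12 h ranged from −0.11 (Efnb3) to 0.03 (Efnb2) in ephrins and from −0.13 (Sema3d) to 0.15 (Sema5a) in semaphorins. Eph receptors other than Epha1 and Ephb2 lay between −0.08 (Epha8) and 0.16 (Epha4). Plexins other than Plxna3 ran from −0.12 (Plxnb3) to 0.07 (Plxna2). Nrp1 read 0.00, Robo4 −0.02 and Slit1 0.06.

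**Figure D5:**
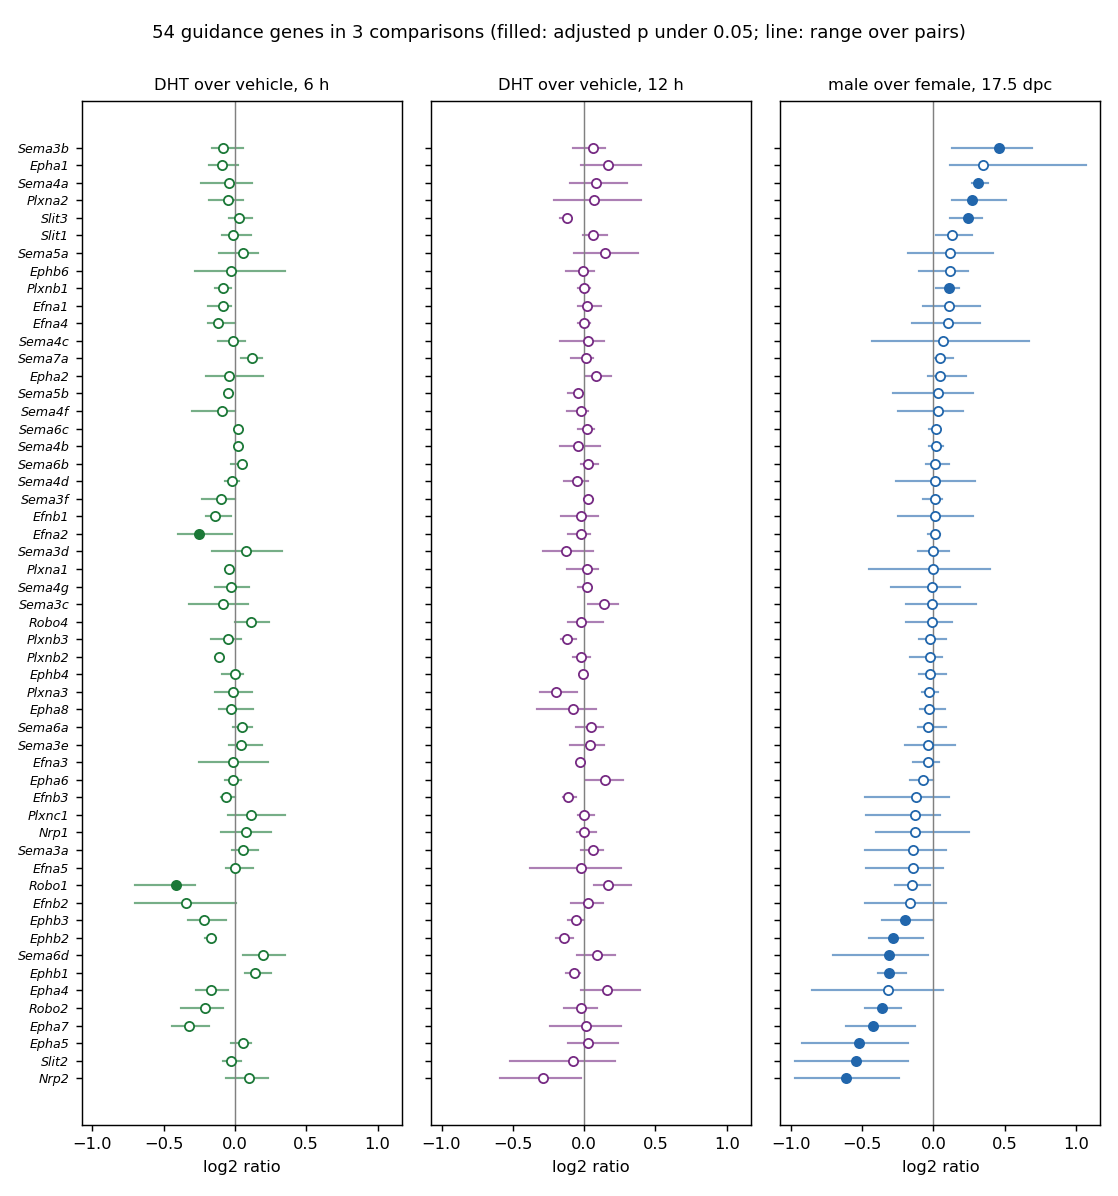
Mean log2 ratio (horizontal axis) of all 54 tested guidance genes at 6 h, at 12 h and between the sexes, ordered by the male over female mean. Lines give the range over pairs and filled points an adjusted p under 0.05: 2 genes at 6 h, 0 at 12 h and 14 between the sexes.

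The comparisons were set against each other by testing the difference of 2 log2 ratios in the same fit. The pools of the 3 comparisons were different, so no pool was shared. Between 6 h and 12 h, no guidance gene passed by limma, where 0.113% of all genes did (0.0971% higher and 0.0162% lower), and 9 had an unadjusted p under 0.05. The largest difference was that of Robo1, from −0.41 to 0.17, a change of 0.58 ± 0.103 (SE) with an adjusted p of 0.0566. Under 4 of the alternative settings, among them median centring and the authors' own ratios, Robo1 passed this test.

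The male-female ratio differed from the 12 h ratio in 2 guidance genes (3.7%), 1 higher and 1 lower, against 1.65% of all genes (0.809% higher and 0.842% lower). Slit3 went from −0.12 at 12 h to 0.24 in males over females (difference 0.36 ± 0.065 SE, adjusted p = 0.0135), with every 12 h pair below 0 and every male-female pair above it. Robo2 went from −0.02 to −0.36 (difference −0.34 ± 0.077 SE, adjusted p = 0.0472). Slit3 lost the call without 12 h pair 1 (0.34, adjusted p = 0.0783), with median centring (0.31, adjusted p = 0.0763) and with the duct mean as covariate (0.34, adjusted p = 0.128). Robo2 lost it without any 1 of the 3 pairs at 12 h or without male-female pair 1, 2, 3 or 4 (−0.28 to −0.40, adjusted p from 0.0576 to 0.202). With the mean over its probes, the Robo2 difference was −0.11 (adjusted p = 0.438). Epha5 lay just outside the threshold (−0.55, adjusted p = 0.0536), and for Nrp2, below 0 in every pair of both comparisons, the difference of −0.32 did not pass (adjusted p = 0.395).

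The male-female ratio differed from the 6 h ratio in 8 guidance genes (14.8%), 4 higher and 4 lower, against 6.91% of all genes (3.5% higher and 3.41% lower). Nrp2 (−0.71, adjusted p = 0.0167), Epha5 (−0.57, adjusted p = 0.0107), Sema6d (−0.52, adjusted p = 0.0156) and Ephb1 (−0.45, adjusted p = 0.000393) were lower between the sexes than after 6 h of DHT. For Ephb1 the 2 ratios had opposite signs in every pair. Sema3b (0.55, adjusted p = 0.00425), Sema4a (0.35, adjusted p = 0.0288), Efna2 (0.26, adjusted p = 0.0406) and Plxnb1 (0.19, adjusted p = 0.0262) were higher. The count was 3 (Epha5, Ephb1 and Sema3b) without 6 h pair 1 or without 6 h pair 2, and 0 by limma when the 6 h ratio was taken from pair 1 alone (11 at an unadjusted p under 0.05). Ephb1 and Sema3b kept the call in 19 of 23 alternatives, Epha5 in 18, Nrp2 in 16, Sema6d in 15 and Sema4a in 14. Plxnb1 kept it in 10 and Efna2 in 6. Robo1, lower at 6 h and not past the threshold between the sexes, did not pass the test of male-female minus 6 h (0.26, adjusted p = 0.109). Across the 54 genes, the log2 ratios at 12 h and between the sexes had a Pearson r of 0.31 (0.191 over all genes), those at 6 h and between the sexes 0.032 (−0.207 over all genes). These are correlations across genes, which are not independent replicates.

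Other genes of the same pathways were counted from 3 lists. Of 19 tested genes for netrins, their receptors and related cues (20 listed), 2 fell between the sexes (10.5%, against 7.58% of all genes) and none passed after DHT by limma (2 at 6 h and 2 at 12 h at an unadjusted p under 0.05). Ntng1, a membrane-anchored netrin, had the larger fall, with −0.66, −0.85, −1.20, −1.0 and −0.69 (mean −0.88 ± 0.22 SD, n = 5, adjusted p = 2.17e-05). Flrt2, a transmembrane ligand of Unc5 receptors, read −0.33 ± 0.23 SD (adjusted p = 0.0173). Of 18 tested co-receptors and sheddases (19 listed), Gpc1, a heparan sulphate proteoglycan, and Adam17, a membrane protease, fell at 6 h (−0.31 and −0.25, adjusted p = 0.0257 and 0.0431), which is 11.1% against 1.63% of all genes, and none passed at 12 h or between the sexes by limma (3 and 0 at an unadjusted p under 0.05).

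Of 52 intracellular effectors, 2 fell at 6 h (3.85%, against 1.63% of all genes), none passed at 12 h by limma (2 at an unadjusted p under 0.05), and 3 rose and 4 fell between the sexes (13.5%, against 7.58% of all genes). Tiam2, an exchange factor for Rac, gave −0.55, −0.64, −0.57, −0.63 and −0.62 in males over females (mean −0.60 ± 0.04 SD, n = 5, adjusted p = 2.39e-06). Rnd3, a small GTPase that opposes RhoA, fell in both comparisons: −0.58, −0.46, −0.08 and −0.40 at 6 h (mean −0.38, adjusted p = 0.0213), and −0.50, −0.72, −0.40, −0.56 and −0.58 between the sexes (mean −0.55, adjusted p = 0.000102). Farp1 (−0.23) and Srgap3, a Slit-Robo GTPase activating protein (−0.27), also fell between the sexes. Rras2 (0.41), Nck2 (0.21) and Sipa1l1 (0.19) rose. Gipc1, an adaptor that binds neuropilins, fell at 6 h (−0.19, adjusted p = 0.0495).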

How the data were processed

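The scanner output of the authors was, per the file headers, made with Agilent Feature Extraction 7.5.1 and holds a mean spot intensity and a local background in Cy3 and Cy5, flags, and a log10 ratio of Cy5 over Cy3. The authors' deposited value table holds a log2 ratio per probe and array, already turned to DHT over vehicle or male over female. Its normalisation is not given in the sources used here. It served as an alternative only.

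In R 4.3.3, intensities were background-corrected (limma 3.58.1, normexp, offset 50; files read with data.table, version 1.17.8) and normalised by loess within each array with control spots at weight 0. Spots marked as outliers were set to missing. Spots of a probe and then both dye orientations of a pair were averaged, since they share their RNA. Probes with a channel well above background on at least 6 of 24 arrays were kept (35477 of 41174), and the brightest represented its gene. Gene names were those of the array, updated through RefSeq accessions and symbols. The male-female files carry an older annotation, and names came from the DHT files. Median array signals ran from 98.14 to 151.1, and 72.5% to 86% of probes were well above background. Each comparison rests on few pairs, and what limits the precision was not tested.

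The 12 pairs were fitted together in limma (lmFit, eBayes) with 1 coefficient per comparison and 3 differences as contrasts. Tests were two-sided and adjusted by Benjamini-Hochberg over 24715 genes, with 0.05 as the threshold. A pair was missing in 42 of these genes. SD is over pairs and SE comes from the fit. The code was tested on simulated data.

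Members, pathway lists and marker lists were chosen with earlier results of these data known. Genes past the threshold in any of the 6 tests were described pair by pair, in the other groups the highest and lowest mean, and the rest as ranges. Red blood cell (6 of 7 listed genes tested) and skeletal muscle markers (9) gave no call in the 3 comparisons by limma (0 to 3 at an unadjusted p under 0.05 in each). Of 7 immune markers, 1 was higher and 1 lower between the sexes. The alternatives were other background corrections, normalisations, filters, probes and priors, marker means as covariates, the replicate number as a block, comparisons fitted alone, and each pair left out.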

Additional observations from a re-analysis of the deposited data

Results flagged for a closer look

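In 6 of 108 sets of values, 1 pair stood far from the other pairs of its comparison, where chance gives about 1 in 20. Between the sexes, pair 4 stood high for Epha1 (1.07) and for Epha2 (0.23), both class A Eph receptors. At 6 h after DHT, pair 2 stood high for Efna5 (0.13) and Epha8 (0.13) and low for Sema6b (−0.03), and pair 1 stood high for Efnb1 (−0.03). None of these genes was past the threshold, and none of these values exceeded 0.13 in size except those of Epha1 and Epha2.

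The tested differences between comparisons came out as follows. Between the male-female and the 12 h ratio, Slit3 differed by 0.36 and Robo2 by −0.34 on the log2 scale. Between the male-female and the 6 h ratio, the difference was −0.71 for Nrp2, −0.57 for Epha5, −0.52 for Sema6d and −0.45 for Ephb1. It was 0.55 for Sema3b, 0.35 for Sema4a, 0.26 for Efna2 and 0.19 for Plxnb1. The comparisons were hybridised on different dates, and their embryos differed in age and treatment, so these cannot be told apart as the origin of a difference. The 6 h pairs were also uneven in Y-linked RNA, with mean DHT over vehicle ratios of −0.14, −1.27, −0.68 and −0.74. With that mean as a covariate, none of these genes passed for male-female minus 6 h by limma. What this unevenness adds to the differences from 6 h was not tested.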

How the results depend on the processing

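No guidance gene that passed reversed its direction under any alternative. Between the sexes, where 14 guidance genes passed, 11 to 13 did with 1 pair left out, 8 with the comparison fitted alone, 5 with the mesenchymal mean, 4 with the epithelial mean and 0 with the duct mean as covariate. Robo2, Ephb1, Ephb2 and Sema3b kept their call in 18 of 19 alternatives, Slit3 in 17, Epha5, Epha7 and Sema4a in 16, Nrp2 and Slit2 in 15, Sema6d in 12, Ephb3 in 11, Plxna2 in 7 and Plxnb1 in 4. At 6 h, where 2 passed, 0 did with the scanner's log ratio, with the epithelial or Y-linked mean, with the comparison fitted alone or from pair 1 only, 1 (Robo1) with the duct mean, and 0 to 2 with 1 pair left out. Robo1 kept its call in 12 of 19 alternatives and Efna2 in 9. At 12 h the count was 0 throughout, also with 1 pair left out (0 to 0), with 1 to 8 genes at an unadjusted p under 0.05. For 12 h minus 6 h, where none passed, 1 (Robo1) did with median centring, with the authors' table and with the mesenchymal mean, and 0 with any pair left out. For male-female minus 12 h (2), 5 passed with median centring (Epha4, Epha5, Epha7, Robo2 and Sema6d, without Slit3), 1 (Slit3) without background correction, with an intensity trend, with the Y-linked or with the mesenchymal mean, 0 with the duct mean, and 0 to 3 with 1 pair left out. For male-female minus 6 h (8), 3 passed with the mesenchymal mean, 0 with the epithelial, Y-linked or duct mean or with pair 1 only at 6 h, and 3 to 9 with 1 pair left out. Fewer pairs enter the fits without a pair or with 1 comparison alone; elsewhere the cause was not tested.

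Replicate numbers recur across comparisons but name different pools. Same-numbered pairs deviated together at r = −0.068 to 0.287, so the numbers were not taken to pair them. With a replicate block, 14 guidance genes passed between the sexes, of which 12 were among the 14 above (Plxna2 and Plxnb1 dropped out, Epha1 and Epha4 came in), 1 (Robo1) at 6 h, 0 at 12 h, 1 (Robo1) for 12 h minus 6 h, 1 (Epha5) for male-female minus 12 h (Slit3 0.36 and Robo2 −0.39, adjusted p = 0.0631 and 0.0952), and over all genes 6 at 12 h, 155 for 12 h minus 6 h and 185 for male-female minus 12 h.

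Counts over all genes moved too. At 6 h (403) they were 92 with median centring, 25 with the scanner's ratio, 700 with the authors' table, 3 with the epithelial and 3 with the Y-linked mean, 98 with the duct mean, 8 alone, 1 from pair 1 and 13 to 234 with 1 pair left out. At 12 h (71) they were 0 without background correction, with the authors' table, the epithelial or duct mean, alone or with any pair left out, 18 with the mesenchymal mean, 20 with the stricter filter, 21 with median centring, 36 with the Y-linked mean, 47 with the scanner's ratio and 117 with an intensity trend. Between the sexes (1873) they were 681, 577 and 85 with the epithelial, mesenchymal and duct means, 869 alone and 1143 without pair 4. For 12 h minus 6 h (28) they ran from 0 to 74 besides the block, for male-female minus 12 h (408) they were 145 and 124 with the mesenchymal and duct means, and for male-female minus 6 h (1708) they were 814 with median centring, 1110 with the scanner's ratio and 15 to 572 with marker means. With median centring 3 of the 92 genes at 6 h were higher, against 120 of 403, and at 12 h 18 of 21, against 28 of 71.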
